A study of Mus musculus with 10 samples.

Results

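The 10 libraries of this series fell into 2 sets by the level of Bcl10 (ENSMUSG00000028191, GRCm38 chromosome 3, 145922804 to 145934356, plus strand). FPKM is fragments per kilobase of transcript, scaled to the number of mapped fragments. The 6 libraries with Bcl10 below 30 FPKM are called the low set and the 4 at or above 30 FPKM the high set. Together they are all 10 libraries. All were primary keratinocytes, the main cells of the epidermis, cultured from skin of mouse pups at postnatal day 4 to 5, and all mice carried the allele named Bcl10tm1Mak in the labels. The low set held 4 libraries labelled Bcl10-/- (knockout, cultures KO1 and KO2) and 2 labelled Bcl10+/- (heterozygous, culture Het1). The high set held 4 libraries labelled Bcl10+/- (cultures Het2 and Het3) and 0 labelled knockout. A culture here means the libraries that share a genotype label and a number, which are 1 unstimulated library and 1 that received 200 ng/mL recombinant IL-17A for 5 h. The series describes the heterozygous pups as littermates, and the labels do not say which numbers share a litter, or whether a number is 1 animal or several. The p-values below therefore rest on the spread among libraries alone, part of which may be technical. Which bases of Bcl10 the mutant allele lacks was not given in the sources used here. With no wild-type library, all values compare cells that carry at least 1 mutant allele, by their labels.

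BCL10 is an adaptor protein that links CARD-family scaffold proteins to the paracaspase MALT1. The resulting complex activates NF-kB, a family of transcription factors that switches on genes for chemokines, cytokines and its own inhibitors. CARD14 is the scaffold best known in keratinocytes. IL-17A is a T-cell cytokine that acts on keratinocytes through the receptor subunits IL17RA and IL17RC and raises the transcription and stability of neutrophil-attracting chemokine and antimicrobial mRNAs.

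In the low set, Bcl10 stood at 0.969 FPKM in unstimulated KO1, 16.4 in IL-17A-treated KO1, 17.0 and 16.6 in KO2, and 18.0 and 16.3 in Het1 (unstimulated and IL-17A in turn). In the high set it stood at 67.0 and 72.3 FPKM in Het2, and 59.5 and 60.6 in Het3. The highest value below the threshold was thus 18.0 and the lowest above it 59.5. These values chose the sets and are given as a description. Het1 goes against its label, since its 2 libraries lay at the level of the knockout-labelled libraries, and they are called the libraries labelled heterozygous below. The knockout-labelled libraries other than unstimulated KO1 did not stand near 0, and whether the remaining reads come from the mutant allele was not tested.

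The split by Bcl10 coincided with the numbers in the library names, which ran from 1 to 14 in the low set and from 33 to 38 in the high set. Bcl10 level, library number and, apart from Het1, genotype label cannot be told apart in this design. Because measured Bcl10 defined the sets, no test was made of any gene between them, and all low against high values are descriptions. Depth, estimated from the steps between low FPKM values, was 16.0 to 51.3 M fragments in the low set and 17.8 to 29.3 M in the high set. Between 11889 and 12092 genes reached 1 FPKM in each library. Basal keratinocyte markers were present throughout. Krt14, a basal keratin, ranged from 3723 to 5015 FPKM and Trp63, the transcription factor of basal epidermis, from 30.7 to 38.4. Krt15, another basal keratin, was at or near 0 everywhere (at most 0.180 FPKM). In unstimulated KO1, the 10 highest genes took 12.6% of the summed FPKM, and in each of the others 8.21% to 8.66%. A single gene, Gm23935, stood at 11549 FPKM in unstimulated KO1 and at 196 to 2524 in the others. Unstimulated KO1 is also the library with the lowest Bcl10, and whether these are linked was not tested.

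The distance between 2 libraries was taken as the median absolute difference of log2(FPKM + 1) over the 12054 genes whose mean reached 1 FPKM. Libraries of the same culture were 0.0764 to 0.132 apart. Within the low set, libraries of different cultures were 0.108 to 0.138 apart where they shared the knockout label and 0.0868 to 0.150 where the labels differed. Het1 was thus as near to the knockout-labelled cultures as these were to each other. Across the sets, Het2 was 0.264 to 0.341 from the low libraries, while Het3 was 0.159 to 0.218 from them. Het2 and Het3 were 0.133 to 0.205 apart, a range that overlaps the distance of Het3 to the low set. The high set was therefore less uniform than the low set. Of the 4322 genes whose values did not overlap between the sets, 3878 (89.7%) had the Het3 mean between that of the low set and that of Het2. By the choice of these genes, Het2 and Het3 lay on the same side of the low set. Het3 could thus only be nearer to it or farther from it than Het2, and the share has no counterpart over all genes.

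**Figure D1:**
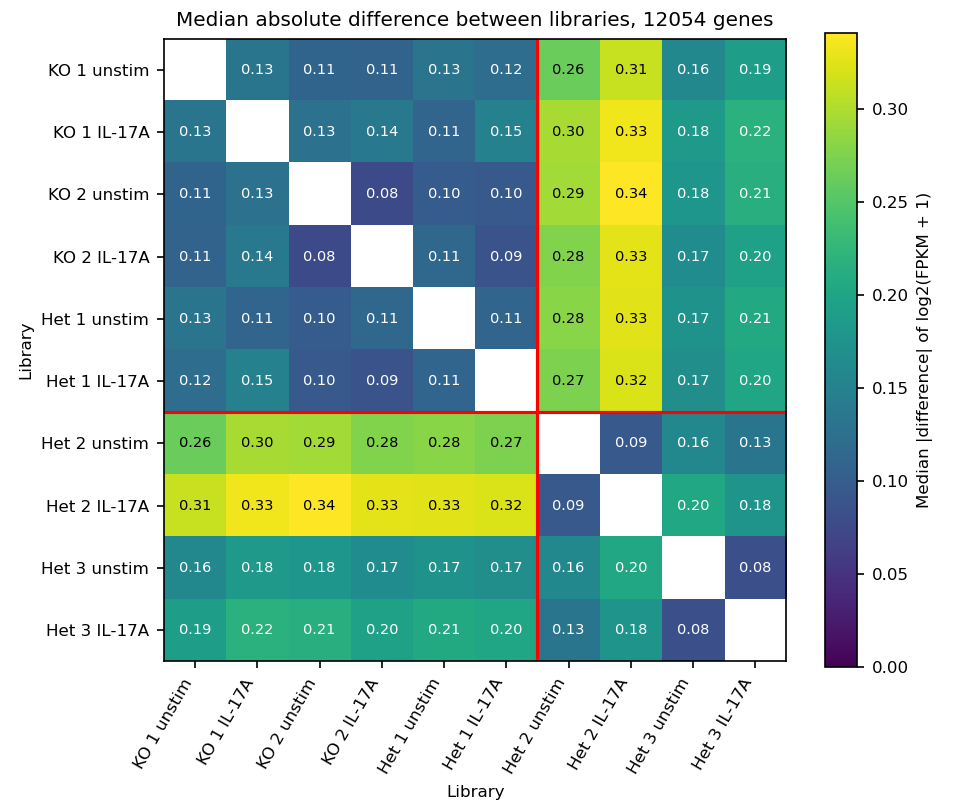
Median absolute difference of log2(FPKM + 1) between each pair of libraries over 12054 genes (colour and printed value), with red lines between the low set (first 6) and the high set (last 4). Het1 lies among the knockout-labelled libraries, and Het2 lies farther from the low set (0.264 to 0.341) than Het3 does (0.159 to 0.218).

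A gene is called apart here when its 10 values did not overlap between the sets and the mean log2(FPKM + 1) differed by at least 1. Differences are given as low minus high, and folds are on the log2(FPKM + 1) scale, which understates the change of genes near 1 FPKM. There were 65 genes apart and higher in the low set (0.539% of 12054) and 50 apart and lower (0.415%). With no minimum difference, 2100 genes (17.4%) lay wholly above and 2222 (18.4%) wholly below the high set, and the median difference over all 12054 genes was -0.02. These shares are the background for the counts of each gene list below. With TPM in place of FPKM, 13656 genes reached the minimum mean of 1, and 154 were apart and higher and 62 lower, so that 71.3% of the genes apart were higher, against 56.5% with FPKM. Without culture Het3 the counts were 123 and 86, and without unstimulated KO1 they were 68 and 46. Of the 115 genes apart, 81 had Het3 nearer to the low set than Het2. Among the libraries labelled heterozygous alone, Het1 against Het2 and Het3, 60 genes were apart and higher and 67 lower, of which 39 and 37 were among the 65 and 50.

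Chemokine and cytokine genes led the genes lower in the low set, and Cxcl2 and Csf2 had the largest differences of the named genes. Of 10 chemokine genes measured, 4 were apart and lower, as 0.415% of all genes were, and 0 lay wholly above the high set. The list's median difference was -1.16 against -0.02 for all genes. Of 13 cytokine and growth factor genes, 4 were apart and lower and 0 lay wholly above, with a median of -0.62. Cxcl2, a neutrophil-attracting chemokine, ranged from 5.90 to 20.2 FPKM in the low set (median 9.39) and was 91.3 and 193 in Het2 and 70.6 and 117 in Het3. Every low library was below every high one. Here and below, n counts libraries, which came from 3 cultures in the low set and 2 in the high set. The SD covers both treatments, so it includes any change with IL-17A. The means of Cxcl2 were 11.4 ± 5.41 FPKM (SD, n = 6) and 118 ± 53.6 (SD, n = 4), and the difference was -3.26, or 9.59-fold. Cxcl3, its neighbour in the same chemokine cluster, ranged from 6.71 to 24.4 FPKM (median 12.1) and was 38.6, 43.1, 43.7 and 46.4 in the high set, in the same order, with a difference of -1.77. Ccl20, which attracts CCR6-bearing cells, differed by -1.69 and Cxcl16 by -1.06. Cxcl1 and Cxcl5, further neutrophil attractants, had differences of -1.39 and -1.26, and in both the sets overlapped: IL-17A-treated Het1 had 985 FPKM of Cxcl1 and unstimulated Het2 and Het3 had 966 and 853.

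Csf2, which encodes the growth factor GM-CSF, ranged from 0.575 to 5.31 FPKM in the low set (median 1.21) and was 12.6, 23.1, 15.5 and 24.0 in the high set, with means of 1.84 ± 1.79 (SD, n = 6) and 18.8 ± 5.65 (SD, n = 4) and a difference of -2.93 (7.64-fold). Tnf, the gene of the inflammatory cytokine TNF, ranged from 3.94 to 7.35 FPKM (median 4.42) and was 21.9, 29.7, 20.4 and 23.7, a difference of -2.11 (4.32-fold). In both genes the highest low library was IL-17A-treated Het1. Il1f6, which encodes IL-36 alpha, an epidermal alarm cytokine, ranged from 1.98 to 6.67 FPKM (median 3.96) against 14.4, 22.4, 11.0 and 17.1, a difference of -1.85. Il23a, a subunit of IL-23, ranged from 3.21 to 6.62 FPKM (median 3.86) against 14.7, 18.6, 18.5 and 18.0, a difference of -1.80. Csf3, the gene of G-CSF, differed by -1.21 with overlap between the sets. The remaining cytokine genes lay between -0.76 (Il1a) and 0.14 (Il24), none of them apart.

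The promoters of Cxcl2, Cxcl3 and Tnfaip3 are shown because these genes were apart and lower and their windows hold an NF-kB motif. RefSeq windows on GRCm38.p6 were used, from 250 bases before to 50 bases after each gene's start. The motif searched was GGG, any 2 bases, TT, any 1 base and CC, without gaps and on both strands, and matches are in capitals in otherwise lower-case letters.
Cxcl2: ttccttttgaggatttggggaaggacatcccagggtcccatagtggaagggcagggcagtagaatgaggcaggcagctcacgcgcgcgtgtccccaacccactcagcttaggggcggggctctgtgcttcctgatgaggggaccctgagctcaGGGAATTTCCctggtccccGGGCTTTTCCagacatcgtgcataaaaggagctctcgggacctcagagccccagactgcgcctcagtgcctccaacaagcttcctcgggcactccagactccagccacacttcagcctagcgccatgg
Cxcl3: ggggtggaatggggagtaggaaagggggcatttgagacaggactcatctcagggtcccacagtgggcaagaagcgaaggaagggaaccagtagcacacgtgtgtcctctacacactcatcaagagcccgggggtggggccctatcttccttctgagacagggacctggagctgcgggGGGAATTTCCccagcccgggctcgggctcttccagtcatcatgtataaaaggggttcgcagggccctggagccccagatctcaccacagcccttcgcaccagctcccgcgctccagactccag
Tnfaip3: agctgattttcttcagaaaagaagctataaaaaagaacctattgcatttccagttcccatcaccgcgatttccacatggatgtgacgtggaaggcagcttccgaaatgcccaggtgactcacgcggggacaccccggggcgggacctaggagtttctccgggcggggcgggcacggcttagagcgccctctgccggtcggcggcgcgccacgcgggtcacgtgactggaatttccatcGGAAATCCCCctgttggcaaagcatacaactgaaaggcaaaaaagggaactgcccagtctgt
The Cxcl2 window is chr5:90903649-90903948 on the plus strand, with matches that begin 97 and 78 bases before the start. Cxcl3 is chr5:90785851-90786150 on the plus strand, with 1 match that begins 73 bases before it. Tnfaip3 is chr10:19015361-19015660 on the minus strand, the first of 2 windows for this gene, and its match reads on the opposite strand and begins 12 bases before the start. Of the 50 genes apart and lower, 37 had a window and 7 of these (18.9%) held the motif. The share was 4 of 50 windows (8.0%) for the genes apart and higher, 6.32% of 8336 windows among tested genes and 5.48% of 27025 in the whole table. Among the chemokine and cytokine genes tested, apart or not, it was 7 of 15 windows (46.7%). Whether the share among genes apart and lower reflects more than their chemokine members was not tested. The other genes apart and lower with a match were Ccl20, Krt90, Mcoln3 and Serpina3g. The windows of Tnf and Csf2 do not contain these letters. A match is a description of the sequence only.

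Some regulators of NF-kB itself were lower. Of 18 genes in the list of NF-kB subunits, feedback genes and IL-17 effectors, 7 lay wholly below the high set, 1 wholly above, and 10 overlapped it, with a median of -0.19 (-0.31 among the libraries labelled heterozygous alone). Over all genes, 18.4% lay wholly below and 17.4% wholly above. Tnfaip3, which encodes the inhibitor A20, was apart: it ranged from 2.28 to 6.89 FPKM in the low set (median 3.71) and was 12.2, 9.27, 10.3 and 10.2 in the high set, a difference of -1.23. Nfkbia, the gene of the inhibitor IkB-alpha, differed by -0.86 (75.1 to 101 FPKM against 146 to 183), and the anti-apoptotic Birc3 by -0.85. The subunit genes Relb and Nfkb2 differed by -0.72 and -0.67. Rela and Nfkb1, the subunits of the classical dimer, differed by 0.09 and -0.10, and in both the sets overlapped. The receptor gene Il17rc was the only member above (0.42), and Il17ra differed by -0.07 with overlap. Nfkbiz, an IL-17A-responsive cofactor, differed by 0.00.

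Within the CARD-BCL10-MALT1 complex the members differed in opposite directions. Malt1 (chromosome 18) ranged from 4.62 to 5.26 FPKM in the low set (median 4.78) and was 2.65, 2.49, 2.51 and 2.56 in the high set, with means of 4.86 ± 0.256 (SD, n = 6) and 2.55 ± 0.0704 (SD, n = 4). The difference was 0.72 (1.65-fold), and the sets did not overlap. Within the low set, Malt1 differed by 0.00 between knockout-labelled and Het1 libraries. Card10, another scaffold gene, was wholly above by 0.64. With the adjustment for gene length and GC described below, the median over the 4 complex genes measured, Bcl10 included, moved from 0.31 to 0.05. This median does not give the adjusted value of Malt1 alone. Card14 differed by -0.01, ranging from 2.12 to 2.85 FPKM in the low set and from 2.14 to 3.01 in the high set. Card9 was at or near 0 everywhere.

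**Figure D2:**
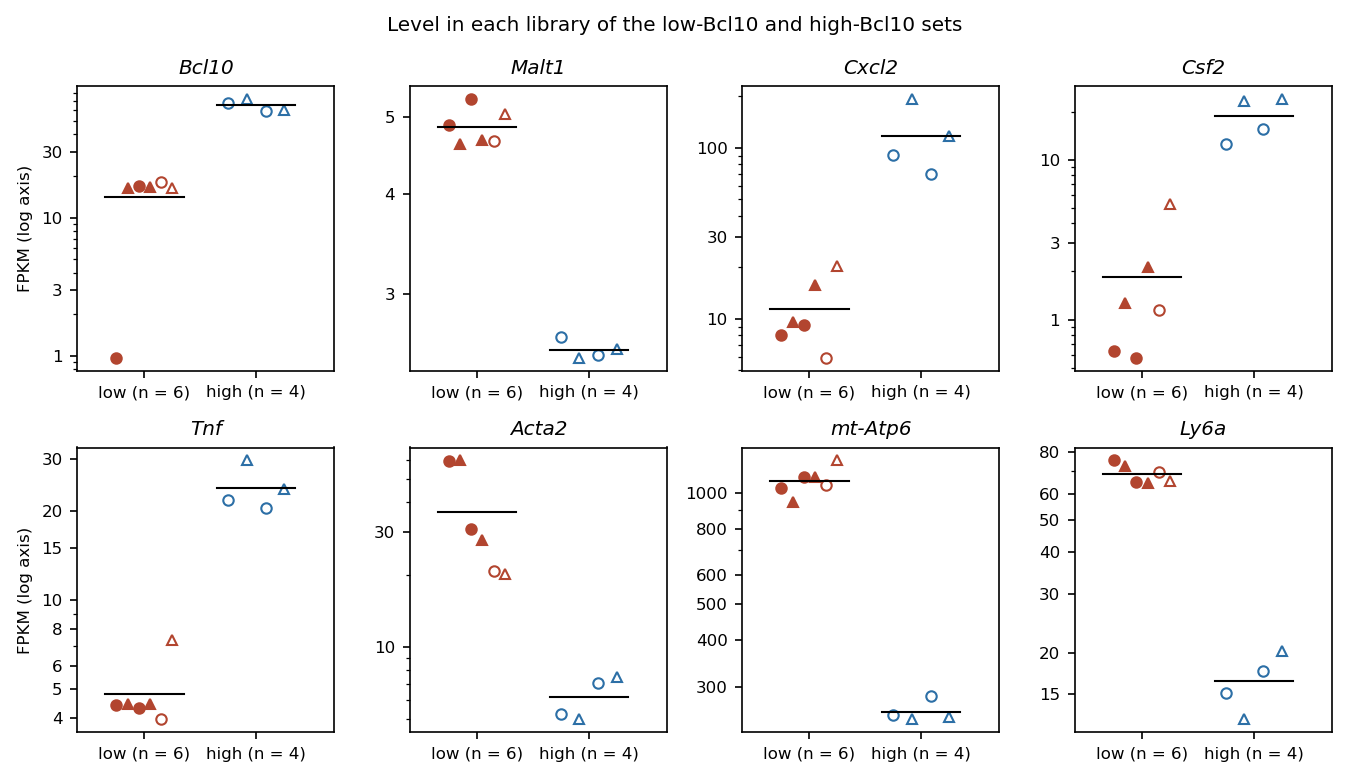
FPKM on log axes in each library of the low (red, n = 6) and high (blue, n = 4) sets, with filled symbols for the knockout label, open ones for the heterozygous label, circles for unstimulated, triangles for IL-17A and a line at the mean. In all 8 genes no low library overlaps a high one: Cxcl2, Csf2 and Tnf are lower in the low set, and Malt1, Acta2, mt-Atp6 and Ly6a higher.

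Genes of the TGF-beta response, extracellular matrix and contractile apparatus were higher in the low set: of 16 measured, 11 lay wholly above the high set and 0 wholly below, 6 were apart, and the median difference was 0.85. The median was 0.51 among the libraries labelled heterozygous alone and 0.36 for knockout against heterozygous labels within the low set. Acta2, smooth muscle actin, was 59.5 and 59.8 FPKM in KO1, 31.0 and 27.9 in KO2, 20.7 and 20.2 in Het1, and 5.23, 4.99, 7.06 and 7.49 in the high set, with means of 36.5 ± 18.4 (SD, n = 6) and 6.19 ± 1.26 (SD, n = 4) and a difference of 2.26 (4.79-fold). The order among low cultures was KO1, KO2 and Het1, and the lowest low library was still above the highest high one. Myl9, a myosin light chain, differed by 1.41, the matrix proteins Thbs1, Fn1 and Tgfbi by 1.23, 1.19 and 1.13, and the basement membrane collagens Col4a1 and Col4a2 by 0.95 and 0.93. Timp1, a protease inhibitor, differed by 1.61 and Col7a1, the collagen of anchoring fibrils, by 1.60. Timp1 rested in part on KO2: it was 18.5 and 19.3 FPKM there against 4.15 to 4.92 in the other low libraries, and its difference without KO2 was 1.00.

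Fibroblast markers were higher in the low set as a list, though not in every member or to the same extent in every culture. The 12 listed markers summed to 20.2 to 72.4 FPKM in the low set and 11.7 to 18.1 in the high set, without overlap. Of 6 measured, 2 lay wholly above and 0 below, where 17.4% and 18.4% of all genes did so. Fbln2, a matrix protein of the fibulin family, was apart, with 6.31 to 15.3 FPKM against 2.05 to 4.15 and a difference of 1.38, and Fbln1 differed by 0.57. The list's median of 1.03 was 0.23 among the libraries labelled heterozygous alone, and it was 1.05 for knockout against heterozygous labels within the low set. Postn, the matrix protein periostin, differed by -0.67 with overlap, at 4.10 and 3.52 FPKM in KO2, at most 0.0574 in the other low libraries and 1.40 to 1.97 in the high set. Col1a1 was 10.8 and 10.6 FPKM and Dcn 7.60 and 8.62 in KO2, and neither exceeded 0.186 FPKM elsewhere. Both thus counted as measured, and entered the list's median, only through KO2. Without KO2 the difference in Acta2 was 2.34, and Het1 alone differed from the high set by 1.59 in Acta2. The part of fibroblasts in the matrix result and in Acta2 was not tested. Spp1 and Crabp1, among the largest differences at 2.23 and 2.14, rested on KO2: Spp1 was 67.8 and 66.2 FPKM there against 1.94 to 3.69 in the other low libraries, and without KO2 the differences were 0.81 and 0.85. In bulk RNA, fewer cells of a type and less RNA per cell cannot be told apart.

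Melanocyte markers were lower in the low set. Of 9 measured, 7 lay wholly below the high set and 0 above, with a median of -0.75, and their sum was 176 to 206 FPKM in the low set and 327 to 420 in the high set. Mlana, a melanosome protein, ranged from 20.02 to 26.6 FPKM (median 21.3) against 75.2, 74.5, 44.1 and 46.0, a difference of -1.37, and Dct, an enzyme of melanin synthesis, differed by -0.96. Their part in the other differences was not tested. Of the 9 leukocyte markers found in the table, 7 were at 0 in every library. Cd68, a lysosomal protein of macrophages, lay wholly above the high set, with 7.79 to 10.5 FPKM against 5.10 to 6.72 and a difference of 0.59, and its part in the other differences was not tested. The Y-linked genes Ddx3y and Eif2s3y were apart and higher by 1.49 and 1.19. Xist, also in the sex-linked list, differed by -0.39, and the sets overlapped. Ddx3y was 1.14 to 1.57 FPKM in the knockout-labelled libraries, 5.28 and 6.57 in Het1, 0.439 and 0.456 in Het2 and 0 in Het3. Sex of the pups was not given in the labels, and its part in the differences was not tested.

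Basal keratinocyte genes were higher in the low set, with 8 of 13 wholly above, 0 wholly below and a median of 0.43. The leading members belong to the hemidesmosome, which anchors basal cells: Dst differed by 1.14, Itgb4 by 0.82 and Col17a1 by 0.81. Col17a1 ranged from 297 to 344 FPKM (median 328) against 166, 142, 238 and 207. Terminal differentiation genes had 5 of 14 wholly above, 0 below and a median of 0.39, led by Lor, a cornified envelope protein, at 0.96. Of all genes, 17.4% lay wholly above and 18.4% wholly below. Ly6a, a surface protein known as Sca-1, ranged from 64.5 to 75.5 FPKM (median 67.7) against 15.2, 12.6, 17.7 and 20.3, a difference of 2.02 (4.05-fold). Igfbp2, which binds insulin-like growth factors, ranged from 14.4 to 25.3 FPKM (median 18.98) against 4.49, 4.37, 3.81 and 3.42, a difference of 1.99. In Ly6a the gap between the sets exceeded the range within either.

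Further genes apart and higher among the largest were Stfa3, a cysteine protease inhibitor, at 1.62, and the cornified envelope genes Sprr2a1 and Sprr2a2 at 1.56 and 1.55. The Sprr2a genes are near-identical copies whose reads may be shared, so their values are not separate measurements. Hmga1b differed by 1.63, but it was 37.4 FPKM in unstimulated KO1 and 55.0 in IL-17A-treated KO2 and 1.67 to 2.19 in the other low libraries, and in the libraries labelled heterozygous alone it differed by 0.38. Among genes apart and lower, Mmp9, a matrix protease, ranged from 0.310 to 2.52 FPKM (median 1.34) against 8.01, 8.50, 14.7 and 14.4, a difference of -2.46, and Mmp13 differed by -1.40. The wound and stress list as a whole had a median of -0.01 over 18 genes. Hcar2, a metabolite receptor, differed by -1.83, the amino acid transporter Slc6a14 by -1.59, Bcl2l15 by -1.57 and the sodium pump subunit Atp1b1 by -1.55.

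Several genes of the unfolded protein response were lower, while 3 heat shock genes were higher. Of 17 in the joint list, 9 lay wholly below and 3 wholly above, with a median of -0.31. Hspa5, the chaperone BiP, ranged from 185 to 301 FPKM (median 259) against 470, 490, 429 and 477, a difference of -0.92. Trib3, Ddit3, Herpud1, Atf4 and Dnajb9, all targets or mediators of that response, differed by -0.9997, -0.91, -0.89, -0.84 and -0.81. The 3 genes above were heat shock genes, Hspb1 at 0.71, Hsph1 at 0.61 and Hspa1b at 0.59. In the rest of the list the sets overlapped: Hspa1a (0.49), Sesn2 (0.17), Hsp90b1 (0.01), Atf5 (-0.17) and Dnajb1 (-0.22).

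**Figure D3:**
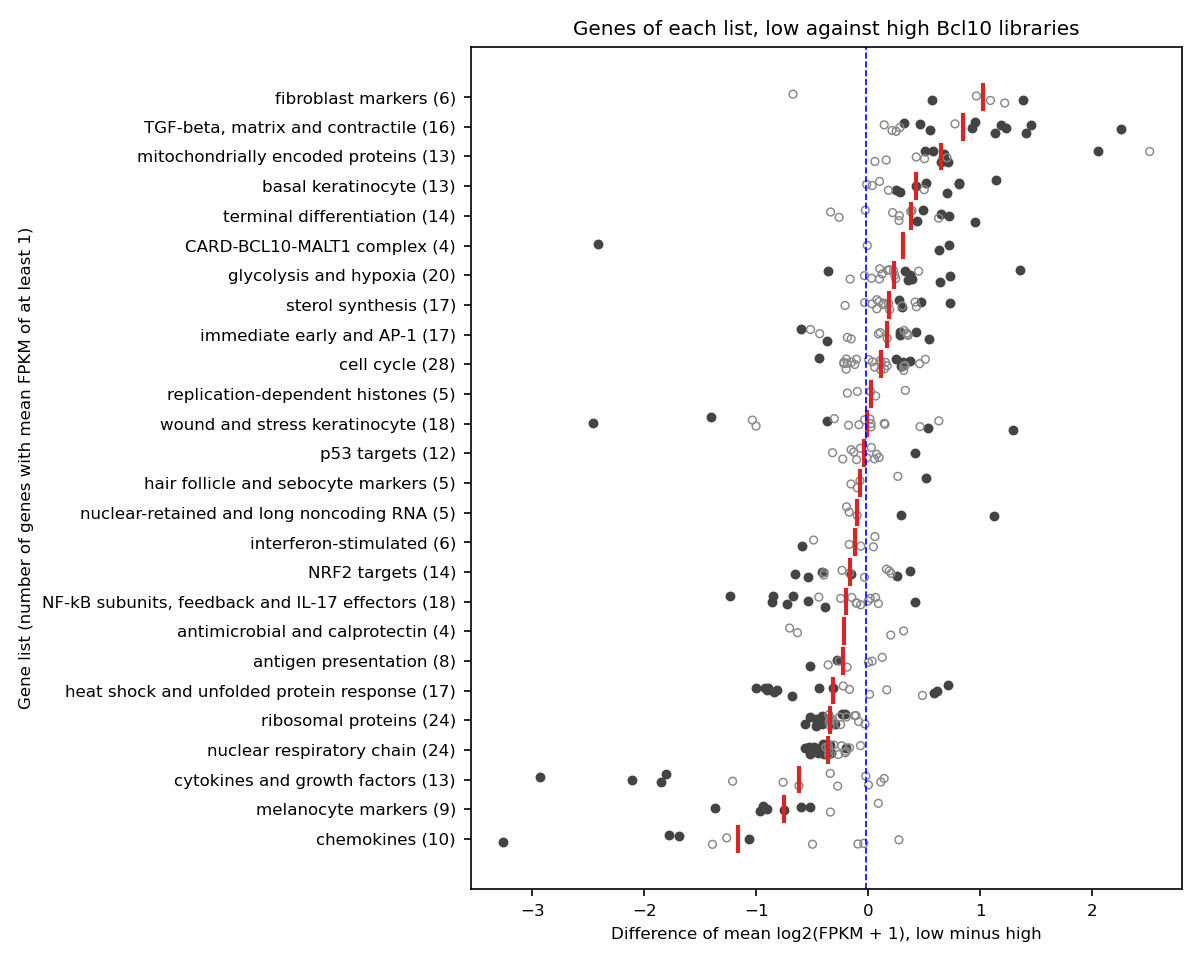
Difference of mean log2(FPKM + 1), low minus high, for each gene of the lists with at least 4 measured genes, with filled points for no overlap between the sets, open points for overlap, red bars at list medians and a dashed line at the median of all genes (-0.02). Chemokines (-1.16) lie lowest, and fibroblast markers (1.03) and the TGF-beta and matrix list (0.85) highest, medians that were 0.23 and 0.51 among the libraries labelled heterozygous alone. Col1a1 and Dcn are among the fibroblast markers shown only through culture KO2.

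Nuclear genes of energy production and the ribosome were lower on the whole. Of 24 nuclear genes of the respiratory chain, 13 lay wholly below and 0 above (median -0.35), and of 24 ribosomal protein genes, 12 lay wholly below and 0 above (median -0.34). The 13 proteins encoded by mitochondrial DNA went the other way, with 7 wholly above, 0 below and a median of 0.66. Among them mt-Atp6, a subunit of ATP synthase, ranged from 945 to 1220 FPKM (median 1074) against 252, 245, 283 and 249, a difference of 2.06 (4.16-fold). Its gene overlaps mt-Atp8, which differed by 0.72, so the division of reads between them is uncertain. mt-Nd2 was listed at 0.0132 FPKM in unstimulated Het2 and at 125 to 217 in the other high libraries, and a single value of that kind can be a failed estimate.

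The difference followed the length and base composition of genes. Over 7026 protein-coding genes whose mean reached 5 FPKM, the median difference was -0.25 for exonic lengths under 1000 bases, -0.20 from 1000 to 2000, -0.07 from 2000 to 4000, 0.03 from 4000 to 8000 and 0.13 at 8000 or more. It was -0.16 for GC content under 44% and 0.17 at 56% or more. Across genes, which are not independent replicates, Spearman's rho was 0.294 with length and 0.315 with GC. For knockout against Het1 within the low set the same values were 0.0102 and -0.0838. Removing each library's median deviation within bins of length and GC, an adjustment chosen after seeing the data, gave 73 genes apart and higher and 41 lower, of which 51 and 37 were among the 65 and 50. With it, Cxcl2 differed by -3.07, Csf2 by -2.73, Tnf by -1.95, Acta2 by 2.41, mt-Atp6 by 2.22 and Ly6a by 2.22. The medians of the respiratory chain and ribosomal lists moved from -0.35 to -0.20 and from -0.34 to -0.22. The TGF-beta and matrix median moved from 0.85 to 0.58, with 5 genes apart, and the chemokine median from -1.16 to -0.975, with 3 apart. Other medians moved away from 0, among them the mitochondrially encoded proteins (0.66 to 0.87) and terminal differentiation (0.39 to 0.50). The basal keratinocyte median moved from 0.43 to 0.25, and Dst, at 0.91, was no longer apart.

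**Figure D4:**
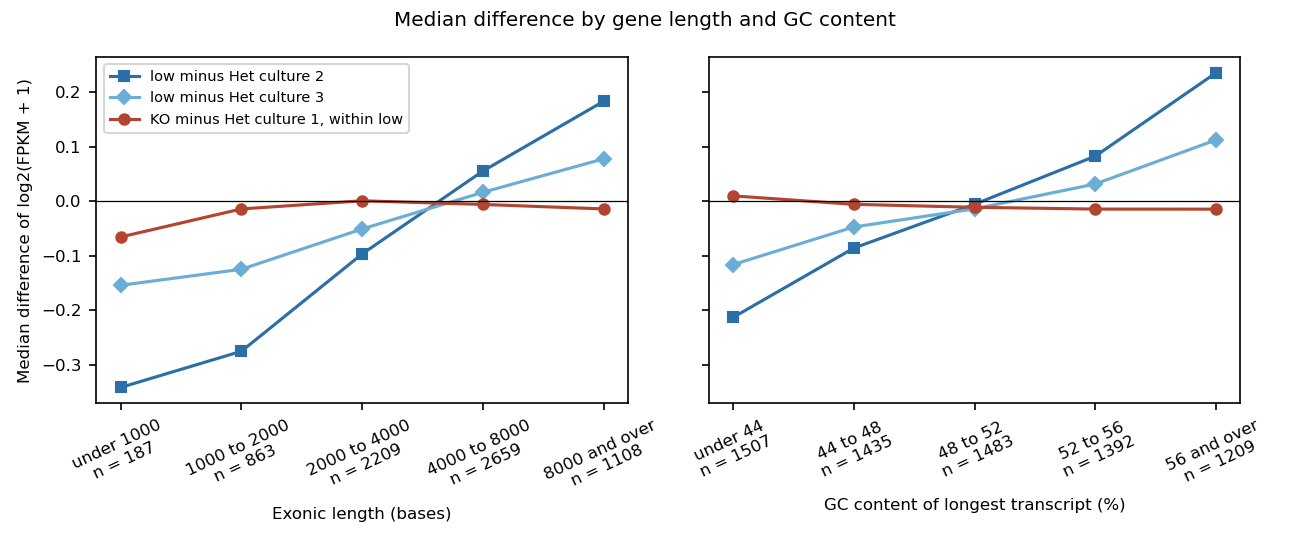
Median difference of log2(FPKM + 1) over protein-coding genes grouped by exonic length (left) or GC content (right), with n genes per group. Both high cultures show the slope, larger against Het2 (from -0.34 to 0.18 by length) than against Het3 (from -0.15 to 0.08), and the comparison within the low set (red) runs close to 0.

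IL-17A treatment labels are independent of the split, so its effect was tested in each set, with limma on log2(FPKM + 1) over 12054 genes and Benjamini-Hochberg adjustment. In the low set (3 against 3 libraries), 12 genes rose (0.0996%) and 1 fell (0.0083%). In the high set (2 against 2), 1 gene rose (0.0083%) and 0 fell (0%). At an unadjusted p under 0.05 there were 274 and 216 genes, fewer than the 603 that would lie there if no gene changed. The counts therefore do not show that further genes were unaffected. These fits held no term for culture. With culture as a fixed effect, 511 and 531 genes had an unadjusted p under 0.05. After adjustment, 8 genes then rose and 0 fell in the low set, and 2 rose and 0 fell in the high set.

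Sprr2e, a cornified envelope gene, rose in both sets. It went from 5.73 to 20.9 FPKM in KO1, from 6.64 to 21.3 in KO2 and from 6.88 to 21.7 in Het1, a log2 change of 1.59 (SE 0.08, limma adjusted p = 0.000109). In the high set it went from 9.11 to 19.96 in Het2 and from 8.23 to 21.6 in Het3, a log2 change of 1.17 (SE 0.10, limma adjusted p = 0.0089). All 5 cultures responded in the same direction. The call in the high set was lost without KO2, Het1 or Het3, whose libraries share the estimate of spread, with a limma adjusted p of up to 0.0675. Zc3h12a, which encodes the mRNA-degrading feedback protein Regnase-1, rose by 1.52 in the low set (SE 0.14, limma adjusted p = 0.0072), from 6.25, 8.12 and 6.06 FPKM to 21.4, 21.4 and 20.9. In the high set it went from 9.95 to 21.5 and from 13.0 to 28.0 FPKM, with a log2 change of 1.04 that missed the threshold (limma adjusted p = 0.274).

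The IL-17 cofactor gene Nfkbiz rose by 1.03 in the low set (limma adjusted p = 0.019), and the transporter gene Slc6a14 by 1.21 (limma adjusted p = 0.0072). With culture as a fixed effect, the limma adjusted p was 0.0454 for Nfkbiz and 0.146 for Slc6a14. The closing section names the other genes that lost the call in that fit. Slc6a14 also had a change of 1.21 in the high set (limma adjusted p = 0.056). The other genes that rose in the low set were Sprr2g (1.02), Slc5a1 (0.99), Timm22 (0.94), Tgif2-ps2 (0.81), Hcar2 (0.80), the transcription factor gene Cebpd (0.74), ENSMUSG00000048962 (0.71) and BC117090, which was listed at 0 in the 3 unstimulated libraries and at 5.74, 10.1 and 7.36 FPKM after IL-17A. The tight-junction gene Marveld2 fell by 0.59. Sprr2e alone of these 13 genes stayed under an adjusted p of 0.05 in every fit that left out a library or a culture.

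None of the chemokine and cytokine genes that were apart between the sets passed the test for IL-17A in either set. Cxcl2 went from 8.05 to 9.53 FPKM in KO1, from 9.25 to 15.7 in KO2 and from 5.90 to 20.2 in Het1, against 91.3 to 193 in Het2 and 70.6 to 117 in Het3. Its log2 change was 0.85 (SE 0.28) in the low and 0.89 (SE 0.35) in the high set, with a limma adjusted p of 1 in each. Csf2 had log2 changes of 1.00 (SE 0.32) and 0.72 (SE 0.39), also with a limma adjusted p of 1. The IL-17A-treated low libraries, from 9.53 to 20.2 FPKM of Cxcl2, remained below the unstimulated high libraries. Of the 10 chemokine genes, 9 had a positive change in the low set and 8 in the high set, with medians of 0.32 and 0.28, and 0 passed the test in either. Over all genes tested the medians were -0.01 in both.

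**Figure D5:**
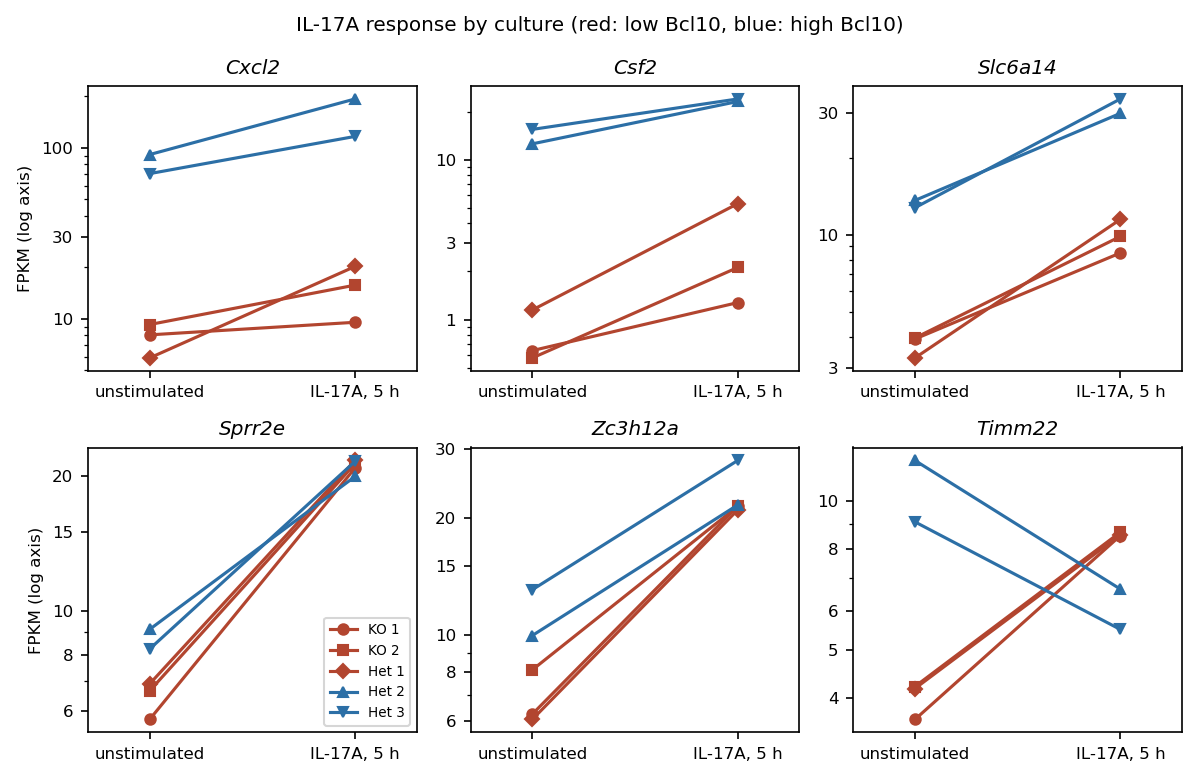
FPKM on log axes before and after 5 h of IL-17A in each culture (red, low set; blue, high set). Cxcl2 and Csf2 start lower in the low set and stay below the high set, Sprr2e reaches 19.96 to 21.7 FPKM in all 5 cultures, and Timm22 goes up in the low cultures and down in the high ones.

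The difference between the IL-17A responses of the sets was tested directly, and 0 genes passed in either direction by limma (0%), with 142 at an unadjusted p under 0.05. With other scalings and filters, 0 to 3 genes passed upward and 0 or 1 downward. Cxcl2 differed in response by -0.04 (SE 0.45) and Csf2 by 0.29 (SE 0.50). A limma adjusted p of 1 in both does not show that the responses were alike. The gene nearest the threshold was Timm22, which encodes part of a mitochondrial import complex, with a difference of 1.64 (SE 0.17, limma adjusted p = 0.067, from 0.00614 to 0.34 over the alternatives). Timm22 went from 3.62, 4.22 and 4.18 to 8.52, 8.66 and 8.55 FPKM in the low set, and from 12.1 and 9.09 to 6.64 and 5.5 in the high set. Il1rn, which encodes the interleukin-1 receptor antagonist, went from 1.40 and 1.83 to 6.83 and 8.08 FPKM in the high set, and from 3.31, 3.59 and 3.38 to 1.52, 2.50 and 3.5 in the low set. Its difference in response was -2.07 (SE 0.29, limma adjusted p = 0.364).

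Within the low set, knockout-labelled libraries (4) were tested against the libraries labelled heterozygous (2, both of culture Het1) with treatment in the model. Libraries of the same culture were counted separately. Het1 entered this set by its Bcl10 level, so the labels here are not independent of the split. The counts cannot be read as the effect of genotype. With limma, 4 genes were higher in the knockout-labelled libraries (0.0332%) and 0 lower (0%), with 619 at an unadjusted p under 0.05 against 603 if no gene changed. With 1 heterozygous culture, genotype and culture cannot be told apart. The largest were 3 processed pseudogenes, Gm14633, Gm13827 and Gm15793, with log2 differences of 4.00, 3.55 and 2.74. Gm14633 was 68.9 to 84.8 FPKM in the knockout-labelled libraries, 3.79 and 3.82 in Het1, and 75.9 to 96.0 in the high set, so Het1 stood alone among all cultures. Tagln, a contractile protein gene, was higher by 1.23 (SE 0.09, limma adjusted p = 0.0448), and it lost the call in every fit that left out a library or a culture. Over all 12054 genes, the median absolute difference was 0.07 between the labels within the low set, 0.16 between Het2 and Het3 and 0.22 between the low and high sets.

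Genes next to Bcl10 on chromosome 3 were examined because cells that carry a mutant allele also carry the DNA linked to it. Within 1 Mb on either side, 15 genes were measured, Bcl10 included. Of these, 2 lay wholly above the high set and 6 wholly below, Bcl10 among them by the choice of the sets, where 17.4% and 18.4% of all genes did so. Besides Bcl10, Mcoln3, which encodes an endolysosomal channel, was apart and differed by -1.33, as 0.415% of all genes were apart and lower. Clca2 was wholly above by 0.70 and Syde2 by 0.25.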

How the data were processed

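Poly(A)-selected RNA libraries were sequenced, per the labels' protocols. FPKM values of 37991 gene identifiers were deposited by the authors as a single table. Per the submitters' processing notes, HISAT2, SAMtools, StringTie and DESeq2 were used with build mm10; the role of each tool was not stated. Symbols, positions and lengths came from a GRCm38 annotation, which held 32938 of the identifiers. Depth is an estimate: 43.7% to 50.4% of low values lay within 0.05 of whole fragments, so no reads were recovered and no count test was run. FPKM values were analysed as log2(FPKM + 1) for the 12054 genes with a mean of at least 1. limma 3.58.1 (R 4.3.3, trended eBayes, two-sided, threshold 0.05) fitted 4 classes, set by treatment, for IL-17A, and 6 libraries for genotype labels. Tested on simulated data for IL-17A in the low set (12054 genes), it recovered 89 of 100 genes changed by 1 on log2, with 3 false calls. The simulated libraries varied independently, without differences between cultures, so this recovery need not hold for the real data.

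Members and gene lists were chosen with earlier results of these data known. Genes named between the sets were the 12 largest in each direction that were apart, had a mean of at least 5 FPKM and a symbol that is not a predicted gene, plus Bcl10, Malt1 and list members. For tests, called genes were named, up to 12 a direction, or else the 5 of smallest p. Alternatives are in the closing section. Some single-gene values are not reported here.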

Additional observations from a re-analysis of the deposited data

Results flagged for a closer look

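Of 50 groups of values checked, 7 held 1 library far from the others by Dixon's criterion, which chance alone meets in about 1 of 20 groups. In the low set, Bcl10 in unstimulated KO1 was 0.969 FPKM, against 16.3 to 18.0 in the other 5 libraries. IL-17A-treated Het1 was the highest low library in 4 genes that were lower in the low set: Csf2 at 5.31 FPKM (others 0.575 to 2.12), Tnf at 7.35 (3.94 to 4.46), Cxcl3 at 24.4 (6.71 to 13.2) and Bcl2l15 at 42.1 (29.0 to 32.6). In the high set, Timp1 was 0.754 FPKM in IL-17A-treated Het2 (others 2.13 to 2.35), and Il23a was 14.7 in unstimulated Het2 (others 18.0 to 18.6).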

How the results depend on the processing

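Between the sets, the 65 genes higher and 50 lower became 133 and 86 with a pseudocount of 0.1, 40 and 38 at a mean of at least 5 FPKM, 154 and 62 with TPM scaling, and 2100 and 2222 with no minimum difference. IL-17A libraries alone gave 92 and 86. Leaving out a library or culture gave 50 to 123 and 43 to 86, both highest without Het3. Of the 65 and 50 genes, 65 and 41 were still apart with TPM scaling and 45 and 41 without Het2. Of 599 alternative values for the 25 genes named between the sets, 593 stayed within 1 SD. Nearly all of these genes were picked for large differences in the same libraries that the alternatives reuse. Their stability is therefore partly built in and is not independent support.

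For IL-17A in the low set, with no filter on low values 3 genes rose and 0 fell, and 0 fell with the 5 FPKM filter or TPM scaling. Leaving out a library or culture gave 1 to 10 up and 0 to 4 down, with 1 up without Het1. In the high set, the count up was 4 with no filter and 2 with the 5 FPKM filter or median-of-ratios scaling, and the count down was 1 with a pseudocount of 0.1, 4 with no filter and 1 with TPM scaling. Leaving out gave 0 to 9 up (0 without Het1, 9 without Het3) and 0 to 12 down. For the difference between the sets, no filter gave 3 and 1 genes, median-of-ratios scaling 1 up, and leaving out 0 to 8 up and 0 to 6 down. For knockout-labelled against Het1 libraries, no filter gave 1 gene higher, a fit of all 10 libraries 2, and leaving out 2 to 25 higher (25 without KO1) and 0 to 2 lower. The cause of these changes was not tested.

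The main IL-17A fits did not take culture numbers as pairs, so their spread includes differences between cultures. Deviations of same-culture libraries correlated at 0.067, 0.349 and 0.0298 in KO1, KO2 and Het1. In the high set the value was 0.226, shared by Het2 and Het3. All of these were positive. A replicate block, with culture as a fixed effect, was fitted as an alternative. With the replicate block, 8 genes rose and 0 fell in the low set, where Slc6a14, Cebpd, BC117090, Tgif2-ps2, Hcar2, Marveld2 and ENSMUSG00000048962 had limma adjusted p values of 0.146 to 0.283, 2 rose in the high set (Sprr2e had a limma adjusted p of 0.0691 there), and 0 up and 1 down differed between the sets. Knockout-labelled against Het1 libraries gave 4 with culture as a random block. Depth limits genes near 1 FPKM.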
